A study of Mus musculus with 6 samples.

Results

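Endoglin and Thy1 are antigens by which the study recognised cells grown from heart explants as cardiosphere-derived. The study also counted Sca-1 among the membrane markers of such cells. Another 7 surface proteins that mesenchymal cells can carry were set beside these here. The 10 genes for these proteins are Eng, Thy1, Ly6a, Ly6c1, Cd44, Nt5e, Alcam, Vcam1, Icam1 and Mcam. They were chosen by name as surface markers, and all 10 were found among the 54532 genes of the deposited table. RNA was sequenced from immortalized cardiosphere-derived cells (iCDCs) of C57BL/6 mice, in 3 control libraries and 3 induced libraries. Control libraries came from iCDCs at passage 30. For the induced libraries, iCDCs at that passage were given 5-azacytidine (5-aza), an inhibitor of DNA methylation, at 10 µM for 3 days and were then kept in IMDM with 2% serum for 4 weeks, as labelled, where the methods give another medium and a shorter time. The labels give heart ventricle as the tissue, and the study's methods trace the line to the epicardium, the outer layer of the heart. Cells of both groups carry human telomerase (hTERT) from a lentivirus under the CMV promoter and were selected with puromycin as a population. The labels do not say how the control cells were kept during those weeks, so the drug, the serum and the time in culture cannot be told apart.

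Cardiospheres are clusters that form when cells migrating out of heart tissue are grown on a coated dish, and cardiosphere-derived cells are the layer that grows from them. Such cells carry surface proteins of mesenchymal stromal cells and lack those of blood cells. The 10 proteins fall into 4 roles. Endoglin is a co-receptor for ligands of the transforming growth factor-beta family. Thy1, Sca-1, Ly6C and the ecto-5'-nucleotidase CD73 are held in the membrane by a glycosylphosphatidylinositol (GPI) anchor, and CD73 makes adenosine outside the cell. CD44 is a receptor for hyaluronan. Alcam, Vcam1, Icam1 and Mcam are adhesion molecules of the immunoglobulin superfamily.

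The libraries held 19041133 to 19823369 counted reads, and 14246 genes had enough reads to be tested. Levels are CPM, read counts scaled to library size by the trimmed mean of M values (TMM). Blood cell markers were mixed. Of 13 hematopoietic markers, Ptprc (CD45), Itgam, Adgre1, Cd52, Tyrobp and Cd3e had 0 reads in all 6 libraries, which allows up to 0.150 to 0.159 CPM in a library, taking 3 counts as the limit. The summed level of the 13 was 146 to 150 CPM in control and 314 to 341 CPM in induced libraries, of which Cd34, a marker that stromal cells can share, was the largest part in both groups. Cd14, a monocyte marker, had 44.7 ± 3.14 and 40.7 ± 1.80 CPM and was not called. Cd68 and Lyz2, expressed in macrophages, rose from 1.95 ± 0.217 to 29.2 ± 2.77 CPM and from 3.76 ± 0.637 to 14.6 ± 1.25 CPM, while Csf1r fell from 22.6 ± 1.05 to 10.9 ± 0.673 CPM (SD, n = 3). Of 12 endothelial markers, 10 were too low to test, with Pecam1 at 3 and 6 reads and Cdh5 at 1 and 1 read in control and induced cells, and Tie1, Cldn5 and Sox17 at 0. The summed level of the 12 was 88.4 to 94.0 CPM in control and 47.8 to 51.3 CPM in induced libraries, nearly all of it Flt1. The 9 mesenchymal markers were all expressed, 6 higher and 3 lower in induced cells, and summed to 22631 to 23753 CPM in control and 25321 to 26563 CPM in induced libraries. Of 12 cardiomyocyte markers, 3 were tested, and the sum of the 12 was 13.4 to 16.2 CPM in control and 60.9 to 63.9 CPM in induced libraries, mostly Tnnt2. These shifts run along with the group in every comparison below, and their part in the surface markers was not tested. In bulk RNA, fewer cells that carry a transcript and less of it per cell cannot be told apart.

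The study used 5-aza to turn iCDCs toward cardiac cells, and the comparison of induced with control cells gives how the surface marker transcripts stood after that treatment. All 10 genes passed the filter on low counts. In the quasi-likelihood test of edgeR, adjusted by Benjamini-Hochberg over every gene tested, each of the 10 had an adjusted p under 0.05. Of all tested genes 64.8% passed, so the count of 10 is to be read against a table in which most genes differed. Nt5e, Alcam, Thy1, Icam1 and Eng were higher in induced cells, beside 32.6% of tested genes, and Ly6c1, Cd44, Vcam1, Ly6a and Mcam were lower, beside 32.2%. The libraries of the groups did not overlap for any of the 10, which was true of 68.6% of tested genes. The sizes ranged from an 11.4-fold fall of Ly6c1 to a 4.51-fold rise of Nt5e. Ly6c1, Nt5e, Alcam, Cd44 and Vcam1 changed by 2-fold or more, against 17.1% of tested genes. The same 5 genes passed a test against a 1.5-fold change, against 21.8%. The median log2 fold change of the 10 was -0.21, and that of all tested genes -0.01. Fold changes are those fitted by edgeR.

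**Figure D1:**
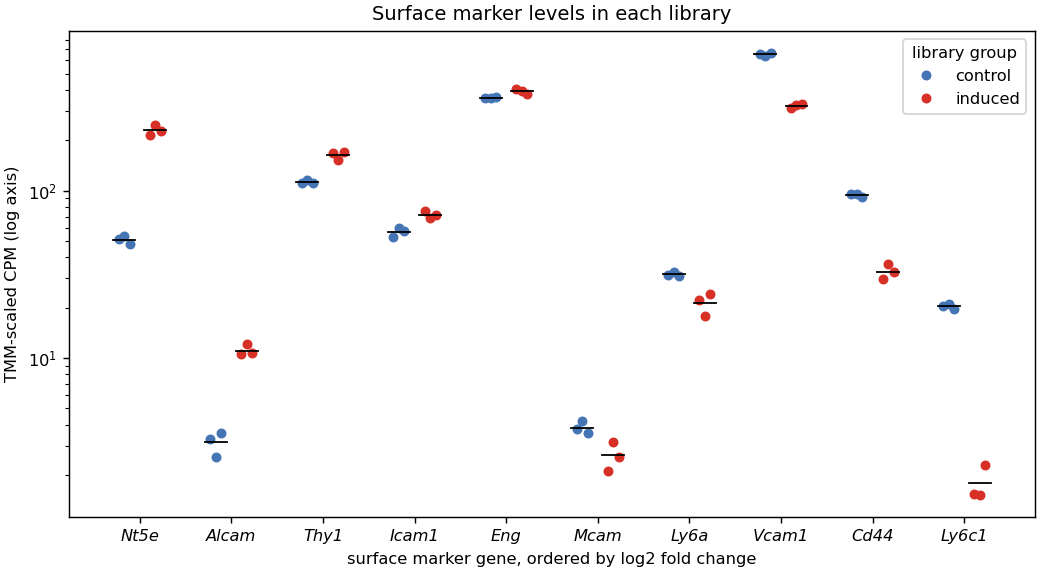
Level of each surface marker gene in the 6 libraries, in TMM-scaled CPM on a log axis, with control libraries in blue, induced libraries in red and the group mean as a bar (n = 3). Genes are ordered by log2 fold change, from Nt5e, with 47.9 to 53.5 CPM in control and 215 to 246 CPM in induced libraries, to Ly6c1, with 19.7 to 21.1 and 1.53 to 2.31 CPM.

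Endoglin, CD105, binds the bone morphogenetic proteins BMP9 and BMP10 and presents them to a receptor complex. Its gene Eng (ENSMUSG00000026814, chromosome 2, 32646595 to 32682669, plus strand) had 360.4, 359.9 and 361 CPM in control libraries 1, 2 and 3, and 406, 392 and 380.1 CPM in induced libraries 1, 2 and 3. All induced libraries lay above all control libraries, by little, and induced library 3 lay nearest to them. The log2 fold change was 0.12 (SE 0.04, 95% interval 0.03 to 0.22, edgeR adjusted p 0.019). The control libraries differed by an SD of 0.329 CPM, which is less than the 4.27 CPM that counting alone gives at this depth. The call was lost on library totals alone (adjusted p 0.0846), without control library 1, 2 or 3 (adjusted p 0.0546, 0.0718 and 0.0596) and without induced library 1 (adjusted p 0.0584). Its adjusted p over all alternatives ranged from 0.00425 to 1.0, and 1.51% of its exon bases overlap Fpgs on the other strand.

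The partners of endoglin in the membrane were described by a list of 9 genes, of which 7 were tested, 4 of them higher and 2 lower, with a median log2 fold change of 0.39. Over all tested genes 32.6% were higher and 32.2% lower, and the counts of this and every later list are to be read beside these shares. Tgfbr2, the type II receptor for TGF-beta, rose from 135 ± 1.58 to 248 ± 12.3 CPM (SD, n = 3). Bmpr2 and Acvr2a, type II receptors for bone morphogenetic proteins and activins, rose by 0.43 and 0.58 on the log2 scale. Tgfbr3, the co-receptor betaglycan, fell by 0.31. The ligand genes Gdf2 and Bmp10 were not tested, with 7 and 0 reads in control and 1 and 3 reads in induced cells. Against a 1.5-fold change, Tgfbr2 alone passed, 1 of the 7, beside 21.8% of all tested genes.

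Thy1, CD90, is a small GPI-anchored protein of fibroblasts and neurons that binds integrins. Thy1 (ENSMUSG00000032011, chromosome 9, 44043384 to 44048579, plus strand) had 111, 115 and 112 CPM in the control libraries and 167, 153 and 171 CPM in the induced libraries. The groups were well apart, with induced library 2 the lowest of its group. The gene rose by 0.54 on the log2 scale (SE 0.05, 95% interval 0.43 to 0.65, edgeR adjusted p 5.6e-08), or 1.45-fold, and 2575 of the tested genes rose more.

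Sca-1 and Ly6C belong to the Ly6 family, small GPI-anchored proteins encoded side by side on chromosome 15. Sca-1 is used to sort stem and progenitor cells of the mouse, and Ly6C marks monocytes and some endothelial and stromal cells. Ly6a, which encodes Sca-1 (ENSMUSG00000075602, chromosome 15, 74994877 to 74998031, minus strand), had 31.2, 32.6 and 31.1 CPM in the control libraries and 22.1, 17.7 and 24.3 CPM in the induced libraries. Every induced library was lower than every control library, and the induced libraries were the more scattered. This was a log2 fold change of -0.57 (SE 0.09, 95% interval -0.76 to -0.37, edgeR adjusted p 2.89e-05).

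Ly6c1 (ENSMUSG00000079018, chromosome 15, 75044018 to 75048830, minus strand) fell furthest of the 10. It had 403, 415 and 393 reads in the control libraries and 29, 29 and 44 reads in the induced libraries, which is 20.4, 21.1 and 19.7 CPM against 1.54, 1.53 and 2.31 CPM. The induced libraries all lay far below the control ones, and induced library 3 was the highest of them. The fitted log2 fold change was -3.51 (SE 0.14, 95% interval -3.80 to -3.21, edgeR adjusted p 1.67e-13), and 58 of the 14246 tested genes fell more. Within a library, the ratio of Ly6a reads to Ly6c1 reads needs no scaling. It was 1.53, 1.54 and 1.58 in the control libraries and 14.3, 11.6 and 10.5 in the induced libraries. The log2 ratio was higher in induced cells by 2.96, and the two-sided exact permutation test gave p = 0.1, the smallest that 3 libraries against 3 can give (0.1 after adjustment over 3 pairs).

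Ly6c1 has a near-identical neighbour, Ly6c2 (chromosome 15, 75108158 to 75111970, minus strand), and reads from one can be assigned to the other or dropped. The first 120 coding bases of both genes are given here because they hold 6 of the 9 bases, of 396, at which the annotated coding sequences differ. The sequences are from GENCODE M21, on GRCm38, 5' to 3', with the differing bases in capitals.
Ly6c1: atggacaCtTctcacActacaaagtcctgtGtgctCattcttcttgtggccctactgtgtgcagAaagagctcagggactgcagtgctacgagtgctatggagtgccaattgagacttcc
Ly6c2: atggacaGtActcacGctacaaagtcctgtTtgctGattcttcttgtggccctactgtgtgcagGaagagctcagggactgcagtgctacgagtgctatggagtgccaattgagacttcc
The 2 coding sequences were 97.7% identical, with a longest identical run of 188 bases. Ly6c2 had 0 reads in all 6 libraries, against 1313 for Ly6c1. Of all stretches of 50 bases in the exons of Ly6c1, 32.8% also occur in another gene, mostly Ly6c2 and Ly6a, and for stretches of 100 bases the share was 10.1%. For Ly6a these shares were 19.0% and 1.45%, mostly shared with Ly6c1. The counts of both genes are therefore uncertain to the extent that such reads were lost.

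The other Ly6 genes were mostly at or near 0 reads. Of 26 further genes of the Ly6 and uPAR family, 21 were too low to test, 9 of them with 0 reads in every library, and those 21 summed to 29 reads over the control libraries and 80 over the induced libraries. Of the 5 tested, 2 were lower and 3 were not called by edgeR, with a median log2 fold change of -0.02. Plaur, the urokinase receptor, fell from 51.5 ± 3.73 to 25.8 ± 0.659 CPM, and Ly6k fell from 50.3 ± 2.42 to 27.9 ± 1.47 CPM (SD, n = 3). Ly6e, the nearest tested neighbour of Ly6a, stood at 193 ± 3.78 CPM in the control and 194 ± 18.2 CPM in the induced libraries, a log2 fold change of 0.01 (SE 0.06, edgeR adjusted p 0.885), and Lynx1 one of -0.02 (SE 0.06). The fall of Ly6a and Ly6c1 thus stood beside a neighbour with no detectable change. Within 500 kb of the start of Ly6c1, 8 genes were tested, of which Ly6a, Ly6k and Jrk were lower and the rest were not called, with a median log2 fold change of -0.29. Of the 561 tested genes of chromosome 15, 288 were lower and 115 higher, with a median log2 fold change of -0.24. Over all tested genes 32.2% were lower and 32.6% higher, with a median of -0.01.

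Thy1 and Mcam lie on chromosome 9, 91.1 kb apart, and moved in opposite directions. Of 21 tested genes within 500 kb of Thy1, 3 were higher and 9 lower, with a median log2 fold change of -0.01. Usp2, a ubiquitin protease gene 23.6 kb from Thy1, rose from 10.1 to 20.8 CPM, while Cbl, 8.51 kb from Mcam, had a log2 fold change of -0.01. Around Nt5e, 6 neighbours were tested, of which 2 were lower and the rest were not called, and their largest log2 fold change was 0.11, so that the rise of Nt5e was shared by none of them.

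**Figure D2:**
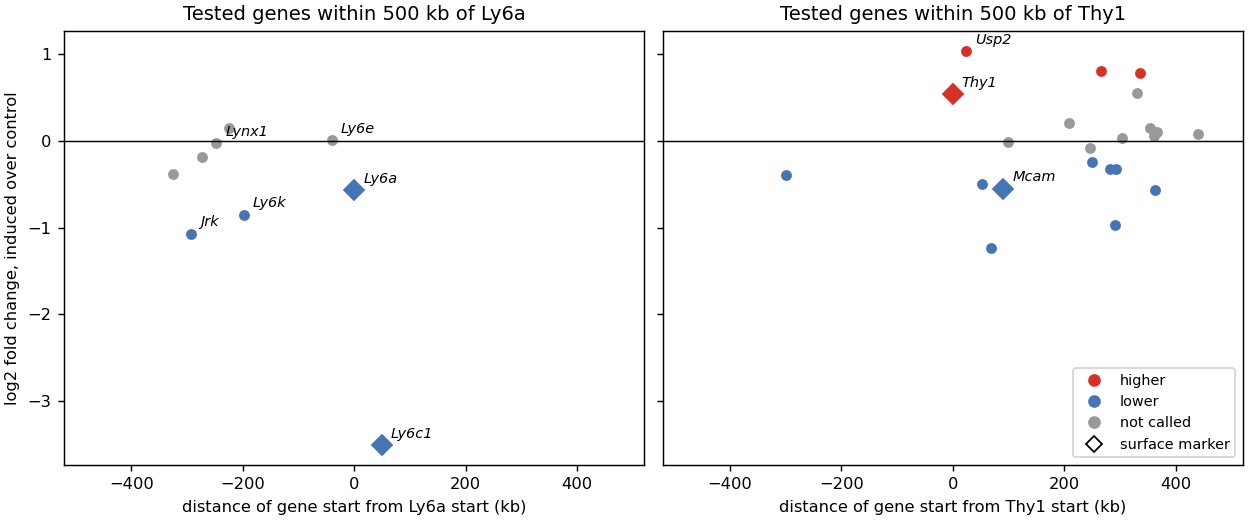
Log2 fold change, induced over control, of tested genes against the distance of their start from that of Ly6a (left) and of Thy1 (right), in kb, with edgeR calls at 0.05 in red (higher), blue (lower) and grey (not called) and surface markers as diamonds. Ly6c1 lies at -3.51 beside Ly6a at -0.57 and Ly6e at 0.01, and Thy1 at 0.54 and Mcam at -0.55 lie on either side of 0.

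CD73 is the enzyme that splits adenosine monophosphate into adenosine at the cell surface. Its gene Nt5e (ENSMUSG00000032420, chromosome 9, 88327197 to 88372092, plus strand) rose furthest of the 10. It had 51.3, 53.5 and 47.9 CPM in the control libraries and 215, 246 and 227 CPM in the induced libraries. No induced library came near the control range. The log2 fold change was 2.17 (SE 0.06, 95% interval 2.04 to 2.30, edgeR adjusted p 1.3e-15), and 507 tested genes rose more.

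The other genes of extracellular adenosine moved in both directions. Of 16 genes, 12 were tested, 3 higher and 5 lower, with a median log2 fold change of -0.19. Of the ectoenzymes that split nucleoside triphosphates outside the cell, Enpp1 rose from 1.38 ± 0.359 to 5.83 ± 0.330 CPM and Entpd2 from 3.24 ± 0.672 to 9.33 ± 0.352 CPM. Enpp3 had a log2 fold change of 0.09 (SE 0.21, edgeR adjusted p 0.733), and Entpd1 (CD39) and Entpd3 were not tested, with 5 and 16 reads in control and 4 and 19 reads in induced cells. Dpp4, a surface peptidase that binds adenosine deaminase in humans, rose from 2.24 ± 0.268 to 13.2 ± 0.879 CPM. The receptor gene Adora2b fell from 21.0 ± 1.77 to 5.99 ± 0.688 CPM. Slc29a1, the main transporter that takes adenosine up, fell from 119 ± 4.76 to 63.9 ± 1.97 CPM, and Alpl, an alkaline phosphatase that also makes adenosine, fell from 11.9 ± 0.829 to 4.83 ± 0.464 CPM (SD, n = 3 for all).

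CD44 binds hyaluronan outside the cell and is tied to actin inside it by ezrin, radixin and moesin. Cd44 (ENSMUSG00000005087, chromosome 2, 102811141 to 102901665, minus strand) had 95.9, 94.9 and 91.1 CPM in the control libraries and 29.8, 36.3 and 32.5 CPM in the induced libraries. All induced libraries lay far below the control libraries. The gene fell 2.86-fold, with a log2 fold change of -1.52 (SE 0.07, 95% interval -1.65 to -1.38, edgeR adjusted p 4.23e-13).

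Of 16 genes for ligands and linkers of CD44, 14 were tested, 4 higher and 6 lower, with a median log2 fold change of -0.45. Has2, which makes hyaluronan, fell from 63.8 ± 4.98 to 2.43 ± 0.296 CPM, a log2 fold change of -4.71 (SE 0.10, edgeR adjusted p 4.28e-17). The ligand genes Vcan (versican) and Spp1 (osteopontin) fell by 1.71 and 1.37 on the log2 scale. Ezr, the gene of ezrin, rose from 490.1 ± 7.67 to 1915 ± 17.6 CPM. Msn (moesin) rose by 0.32 and Rdx (radixin) had a log2 fold change of 0.10 (SE 0.05, edgeR adjusted p 0.0863). Of the genes that break hyaluronan down, Hyal1 and Cemip rose by 0.91 and 0.15, and Hyal2 had a log2 fold change of -1.15.

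Alcam, CD166, binds itself and CD6 on T cells. Alcam (ENSMUSG00000022636, chromosome 16, 52248996 to 52454074, minus strand) was weakly expressed, with 65, 50 and 71 reads in the control libraries and 198, 229 and 204 reads in the induced libraries. These are 3.29, 2.55 and 3.56 CPM against 10.5, 12.05 and 10.7 CPM. The groups were clearly apart, and control library 2 was the lowest. The log2 fold change was 1.82 (SE 0.15, 95% interval 1.51 to 2.13, edgeR adjusted p 3.06e-09). On log2(FPKM + 1), which compresses low levels, it was 0.83 by limma, still past the threshold.

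Vcam1, CD106, binds the integrin alpha4 beta1 of leukocytes. Vcam1 (ENSMUSG00000027962, chromosome 3, 116109949 to 116129688, minus strand) had 658, 635 and 662 CPM in the control libraries and 311, 326 and 329 CPM in the induced libraries. The fall was even over the libraries, and the groups were far apart. It was 2.02-fold in size, a log2 fold change of -1.02 (SE 0.04, 95% interval -1.11 to -0.92, edgeR adjusted p 5e-13).

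Icam1, CD54, binds beta2 integrins. Icam1 (ENSMUSG00000037405, chromosome 9, 21015985 to 21028817, plus strand) had 53.2, 59.5 and 57.5 CPM in the control libraries and 75.4, 68.6 and 71.6 CPM in the induced libraries. Each induced library exceeded each control library. The rise was 1.27-fold, a log2 fold change of 0.34 (SE 0.06, 95% interval 0.22 to 0.46, edgeR adjusted p 5e-05). Of its exon bases 11.7% overlap Gm47079 on the other strand, and without a stated strand setting reads of that gene cannot be told from its own. Vcam1 and Icam1 are often described together as adhesion molecules of activated cells, and here they moved apart. The ratio of Vcam1 to Icam1 reads was 12.4, 10.7 and 11.5 in the control libraries and 4.13, 4.76 and 4.59 in the induced libraries, a difference in log2 of -1.36 (two-sided exact permutation p = 0.1, the smallest possible, adjusted 0.1).

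Mcam, CD146, is an adhesion molecule of endothelial cells, pericytes and some stromal cells. Mcam (ENSMUSG00000032135, chromosome 9, 44134469 to 44142727, plus strand) had only 74, 82 and 71 reads in the control libraries and 40, 60 and 49 reads in the induced libraries. This is 3.75, 4.18 and 3.56 CPM against 2.13, 3.16 and 2.57 CPM. The groups did not overlap, but induced library 2 came close to the control range. The log2 fold change was -0.55 (SE 0.20, 95% interval -0.96 to -0.14, edgeR adjusted p 0.0206). The call was lost without control library 2, induced library 1 or induced library 3 (adjusted p 0.0765, 0.0908 and 0.0536), and its adjusted p over all alternatives ranged from 0.00692 to 0.903. The value was -0.26 on log2(FPKM + 1) by limma.

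**Figure D3:**
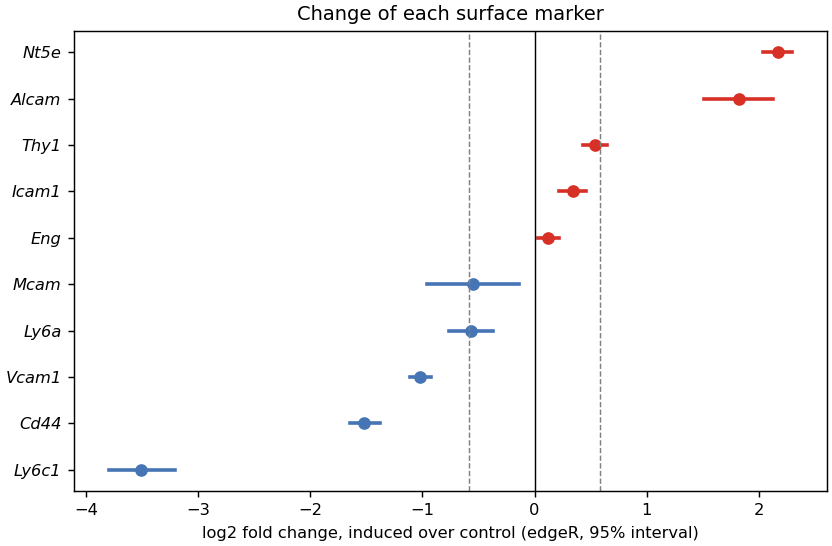
Log2 fold change of each surface marker, induced over control, with its 95% interval from edgeR (3 libraries per group), in red where higher and in blue where lower, and dashed lines at a 1.5-fold change. The intervals of Eng (0.03 to 0.22) and Mcam (-0.96 to -0.14) come nearest to 0.

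The adhesion molecules act through partners on the same or on other cells. Of 15 counter-receptors and ligands, 9 were tested, 5 higher and 2 lower, with a median log2 fold change of 0.34. Itgb1, the beta1 integrin chain, rose from 794 ± 3.46 to 1084 ± 46.0 CPM, and Itgal, the alpha chain of the Icam1 receptor LFA-1, rose from 0.355 ± 0.204 to 3.53 ± 0.771 CPM (21 and 201 reads). Lama4, a laminin chain that Mcam binds, fell from 182 ± 5.42 to 61.9 ± 1.86 CPM, and Itga5 fell by 0.80 on the log2 scale. Itga4, whose product with Itgb1 binds Vcam1, was not tested, with 9 and 32 reads. Cd6 had 0 reads. Of 16 other adhesion molecules of the immunoglobulin and selectin families, 12 were tested, 8 higher and 3 lower, with a median of 0.69. Bsg, basigin, rose from 1537 to 6814 CPM, and Selp, P-selectin, from 20.8 ± 0.404 to 93.2 ± 1.46 CPM. The junctional adhesion molecules F11r and Jam2 rose by 1.22 and 1.17 on the log2 scale, while Jam3 fell by 0.36.

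Vcam1 and Icam1 are known targets of NF-kB and Icam1 also of interferon, and both responses were described by lists. Of 12 NF-kB targets, 10 were tested, 7 lower and 3 not called by edgeR, with a median log2 fold change of -0.74. Ccl2, a monocyte chemokine, fell from 125 ± 4.41 to 49.5 ± 3.76 CPM, Tnfaip2 by 0.88, Birc3 by 0.84 and Nfkbia, the inhibitor of NF-kB, by 0.79 on the log2 scale. Of the 3 that were not called, Nfkb1 and Il6 had log2 fold changes of -0.11 and -0.36 and Relb of 0.02, all with an unadjusted p over 0.05. All 12 interferon response genes were tested, 11 higher and 1 lower, with a median of 4.78. Ifit3 and Ifit1, effectors against viral RNA, rose by 6.27 and 5.85, Irf7 by 2.88 and the tether Bst2 by 1.84 on the log2 scale, while the transcription factor gene Irf1 fell by 0.51. Ly6a is also known as a target of interferon, and its log2 fold change was -0.57. The part of either response in the levels of Vcam1, Icam1 and Ly6a was not tested.

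GPI anchors hold Thy1, Sca-1, Ly6C and CD73, and most genes that make and attach them stayed within 1.5-fold of their control level. Of 27 genes, 26 were tested, 5 higher and 8 lower, with a median log2 fold change of 0.04. Pgap1, an enzyme that remodels the anchor after attachment, fell from 22.4 ± 0.815 to 9.44 ± 0.576 CPM, and Piga, of the first step of synthesis, fell by 0.63 on the log2 scale. Pigk, of the enzyme that attaches the anchor, rose by 0.50 and Pigq by 0.39. Of these 26, Pgap1 alone passed a test against a 1.5-fold change, beside 21.8% of all tested genes.

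Surface proteins can also be cut from the membrane. Of 11 genes for their release, 9 were tested, 5 higher and 2 lower, with a median of 0.16. Gdpd2, a phosphodiesterase gene, fell from 37.7 ± 1.94 to 2.83 ± 0.741 CPM, while Gdpd5 of the same family rose from 7.18 ± 0.400 to 18.3 ± 0.562 CPM. Timp3, an inhibitor of sheddases, rose from 606 ± 1.08 to 2481 ± 118 CPM, and the protease gene Mmp14, whose product can cut CD44 and endoglin, rose by 0.41 on the log2 scale (SD, n = 3).

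Among 17 other surface markers of mesenchymal stromal cells, 13 were tested, 5 higher and 8 lower, with a median log2 fold change of -0.56. Mme (CD10) fell from 71.2 ± 2.26 to 22.8 ± 1.58 CPM, Cd248 (endosialin) from 217 ± 9.71 to 112 ± 8.06 CPM and Cd276 from 97.2 ± 1.20 to 50.8 ± 0.641 CPM, while the tetraspanin gene Cd81 rose from 499.8 ± 7.20 to 914 ± 40.3 CPM (SD, n = 3). These markers, like the 10, moved in both directions, as did all tested genes, of which 32.6% were higher and 32.2% lower.

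**Figure D4:**
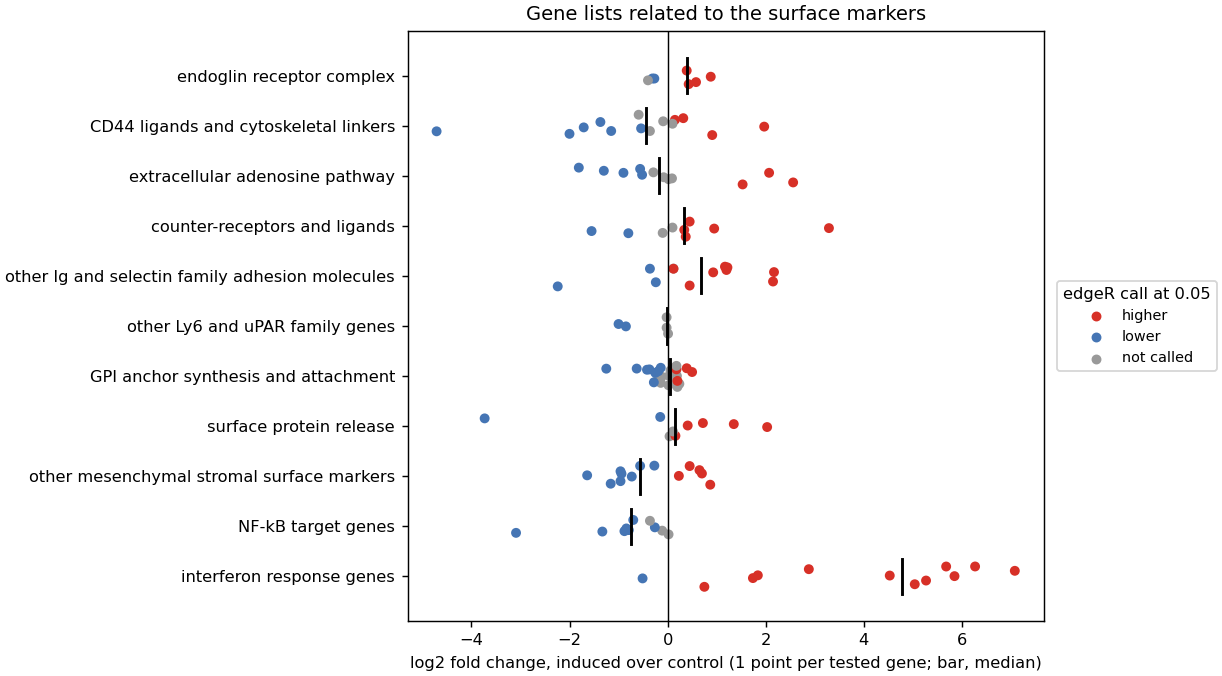
Log2 fold change, induced over control, of every tested gene in 11 lists related to the surface markers, 1 point per gene, in red or blue where called higher or lower by edgeR at 0.05 and in grey otherwise, with the median of each list as a bar. Medians lie between -0.74 (NF-kB targets) and 4.78 (interferon response), and the GPI anchor genes have a median of 0.04.

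Levels were compared between genes as CPM per kb of the deposited gene length. In control cells the order was Eng with 89.0 ± 0.0813, Vcam1 with 73.5 ± 1.66, Thy1 with 37.7 ± 0.682 and Ly6a with 26.2 ± 0.673 CPM per kb (SD, n = 3). Cd44 (13.9), Icam1 (13.0) and Ly6c1 (12.2) followed, and the ranges of Cd44 and Icam1 and those of Icam1 and Ly6c1 overlapped. Nt5e (5.92), Mcam (1.14) and Alcam (0.44) were lowest, each apart from the next. In induced cells Eng was again the highest, with 97.1 ± 3.21 CPM per kb. Thy1 came next with 54.7 ± 3.20, above Vcam1 with 36.3 ± 1.08, and Nt5e with 26.7 ± 1.82. Ly6a (17.7) and Icam1 (16.5) overlapped, Cd44 (4.85) and Alcam (1.56) came next, and Ly6c1 (1.07) and Mcam (0.781) overlapped at the end of the order.

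The summed level of the 10 was lower in each induced than in each control library, by a small amount. It was 272, 274 and 272 CPM per kb in the control libraries and 259, 253 and 260 CPM per kb in the induced libraries. Vcam1 took 26.9 ± 0.700% of the sum in control and 14.1 ± 0.530% in induced cells, and Nt5e 2.17 ± 0.112% and 10.4 ± 0.856% (SD, n = 3). Eng and Thy1 together with Vcam1 held most of the sum in both groups. The ratio of Eng to Thy1 reads was 3.23, 3.13 and 3.22 in the control libraries and 2.43, 2.56 and 2.22 in the induced libraries, a difference in log2 of -0.41 (two-sided exact permutation p = 0.1, the smallest possible, adjusted 0.1).

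**Figure D5:**
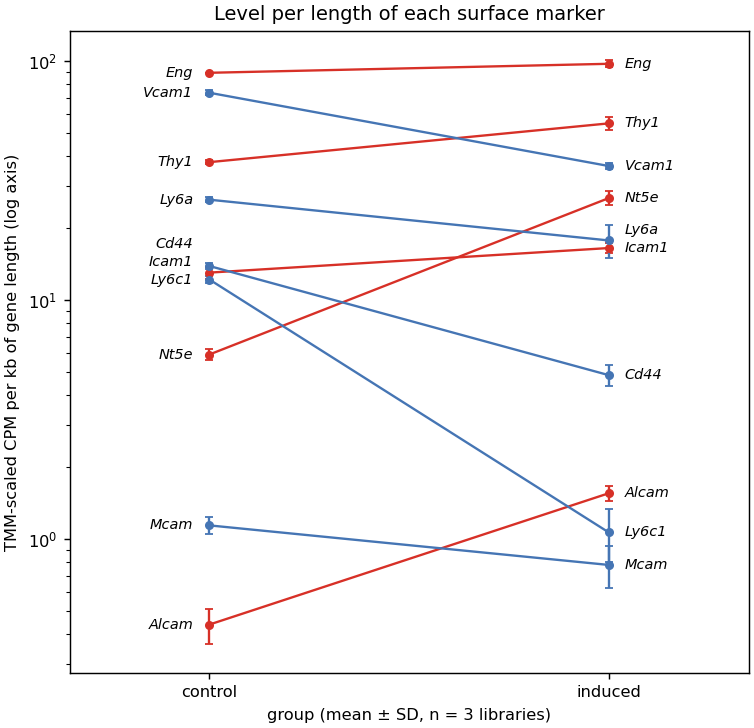
Mean level of each surface marker per kb of gene length (TMM-scaled CPM per kb, log axis, bars of 1 SD, 3 libraries per group) in control and induced cells, joined by a red line where higher and a blue line where lower in induced cells. Eng stays at the top (89.0 and 97.1), Nt5e climbs from 5.92 to 26.7, and Ly6c1 drops from 12.2 to 1.07.

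The genes whose pattern over the 6 libraries was most like those of Nt5e and Ly6c1 were found by the Euclidean distance of centred log2 CPM among 9462 genes with at least 10 CPM, as a description. Those nearest to Nt5e were Gja1, which encodes a connexin of gap junctions and had 76.8 CPM in control but 335 CPM in induced cells, Srd5a2 and Crb2, at distances of 0.139, 0.141 and 0.143. Among the nearest to Ly6c1 were S1pr3, a receptor for sphingosine-1-phosphate with 31.9 CPM in control but 2.76 CPM in induced cells, and Ptpn5, at distances of 0.369 and 0.522. The patterns consist mainly of the difference between the groups.

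Because 5-aza acts on DNA methylation, which in mammals lies mainly on cytosines of CpG pairs, the CpG content of the promoters is given. Methylation itself was not measured in these libraries. RefSeq promoters on GRCm38.p6, of 300 bases from 250 before to 50 after a start site, were matched for 7 of the 10 genes, without Thy1, Ly6a and Vcam1, and Ly6c1 had more than 1. Over all 32851 promoters of the table the median was 7 CpG, with quartiles of 3 and 20. Mcam had 29, Alcam 25, Nt5e 23 and Icam1 19 CpG, Eng and Cd44 had 6 each, and those of Ly6c1 had 1 and 0. Genes that rose (Alcam, Nt5e, Icam1 and Eng) and genes that fell (Mcam, Cd44 and Ly6c1) were found with both many and few CpG. The riser with few was Eng and the faller with many was Mcam, whose calls were the weakest of the 10 (edgeR adjusted p 0.019 and 0.0206). Each of these calls was lost without certain single libraries. A link between CpG content and direction was not tested, and only 7 of the 10 genes had a matched promoter. The 250 bases before a start are shown for Ly6c1 at its first promoter (chr15:75048838-75049087, minus strand) and for Icam1 (chr9:21015690-21015939, plus strand). Among the stretches that overlap no annotated exon, they are the poorest in CpG and a richer one. They are given 5' to 3', with CpG pairs in capitals.
Ly6c1: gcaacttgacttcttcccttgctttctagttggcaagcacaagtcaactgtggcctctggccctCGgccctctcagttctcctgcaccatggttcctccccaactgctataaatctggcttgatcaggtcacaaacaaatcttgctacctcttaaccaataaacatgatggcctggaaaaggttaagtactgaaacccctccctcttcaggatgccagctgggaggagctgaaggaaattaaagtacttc
Icam1: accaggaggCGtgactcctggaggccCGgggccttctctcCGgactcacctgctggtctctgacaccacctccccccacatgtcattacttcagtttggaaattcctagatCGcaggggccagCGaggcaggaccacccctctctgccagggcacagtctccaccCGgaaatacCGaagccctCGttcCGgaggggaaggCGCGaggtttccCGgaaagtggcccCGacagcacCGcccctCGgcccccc
The stretch of Ly6c1 holds 1 CpG and that of Icam1 holds 15.

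The 300-base promoters were also searched on both strands for short letter patterns. They were GGNNTTCC, chosen for NF-kB, the core of the interferon-stimulated response element (interferon regulatory factors), TTCNNNGAA (STAT factors) and TATAAA. These occurred in 18.3%, 3.44%, 8.3% and 13.6% of all promoters. GGNNTTCC occurred once in the promoter of Cd44, TTCNNNGAA and TATAAA once each in that of Icam1, and TATAAA once in the first promoter of Ly6c1. The TATAAA of Icam1 lies outside the 250 bases shown before its start, and that of Ly6c1 lies within them. The core of the interferon-stimulated response element occurred in none of these promoters. Stretches with more bases between GG and TTCC, such as ggaaattcc in the Icam1 sequence above, were not counted. A promoter without GGNNTTCC can therefore still hold a site of NF-kB.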

How the data were processed

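RNA was sequenced from 3 control and 3 induced samples, described as separate samples but not as separate cultures, so p-values measure the spread between these libraries. The authors deposited raw read counts per gene, with gene lengths and FPKM values. Per the submitters' processing notes, HISAT2 2.0.5, featureCounts 1.5.0-p3, DESeq2 1.16.1 and mm10 were used. The strand setting is not given in the sources used here. The deposited normalized means, fold changes, p-values and enrichment tables hold the authors' own results and were not used. The methods name DESeq with fewer replicates, whereas the labels name 3 per group.

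Differential expression was computed with edgeR 4.0.16 under R 4.3.3: filterByExpr (minimum count 10, minimum total 15), TMM scaling, and the two-sided quasi-likelihood test with Benjamini-Hochberg adjustment at 0.05 over 14246 genes holding 99.9% of the reads. Each standard error was derived from the F statistic of the fold change. The prior count was 0.125 and the biological coefficient of variation 5.82%. Intervals and limits cover counting error or the spread between libraries only, because PCR copies of a molecule were not marked. The fit was repeated with another tool (DESeq2 1.42.0, or limma 3.58.1 on log2(FPKM + 1) and on log2(FPKM + 0.1)). It was also repeated with another scaling (library totals, or size factors by median ratio), without a filter or with at least 1 CPM in 3 libraries and a mean count of 10, with replicate number as a block, at a threshold of 0.01, against a 1.5-fold change, and without each library in turn. On simulated counts for the 14246 genes of this comparison, with 200 changed 2-fold, 91% of the changed genes were recovered. The simulation gave all genes the same dispersion and changed far fewer genes than the 9225 called here. It checks the code and does not measure recovery in these data. Library pairs within a group differed by more than sampling noise (chi-square per degree of freedom 2.56 to 8.91).

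The 10 genes and all lists were chosen with earlier results of these data known. Named are the 10 genes, up to 4 tested genes per list with the smallest p, defining cell type markers, and the 3 genes nearest in pattern to the largest rise and the largest fall, of which 1 is not reported here. Enpp1, Entpd2, Enpp3, Entpd3, Jam3, Hyal1, Hyal2, Cemip, Msn, Rdx, Nfkb1, Relb, Il6, Irf1 and the neighbouring genes were chosen after their values were seen. Listed Cemip2 and Ly6m were matched to Tmem2 and 2010109I03Rik. A planned comparison of Ly6 proteins was replaced by one of coding sequences.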

Additional observations from a re-analysis of the deposited data

How the results depend on the processing

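Of 160 fold changes of the 10 genes under alternatives, 145 kept their direction and side of the threshold, 15 kept their direction but lost the call, and 0 reversed. Tested against a 1.5-fold change, Eng (0.12), Thy1 (0.54), Ly6a (-0.57), Icam1 (0.34) and Mcam (-0.55) were not called, so that 5 of the 10, 3111 of all tested genes and 54 rather than 95 calls in the lists passed. At an adjusted p of 0.01, Eng (0.12) and Mcam (-0.55) were lost, and on library totals alone Eng (0.09) was lost. These follow from the stricter test, threshold or scaling itself. Leaving out 1 library at a time, the log2 fold change of Eng ranged from 0.10 to 0.16 and that of Mcam from -0.70 to -0.42, and 8 to 10 of the 10 genes were called. Library totals shifted the median of all genes to -0.04, and 46.5% of calls were then higher, against 50.3%. The order of levels did not change with them, and 19 of 20 levels moved by less than 1 SD, all but that of Eng in control cells (90.1 CPM per kb). Of 176 counts of called genes in lists, 169 were within 1.5 times the reported count. With limma on log2(FPKM + 1), Alcam and Mcam had log2 fold changes of 0.83 and -0.26.

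A control and an induced library with the same number deviated from their group means with correlations of -0.002, -0.0151 and 0.0273, so the numbers were not treated as pairs. Not every library correlated best with its own number. With the replicate block all 10 genes were called, among 9063 genes against 9225, with Eng at an adjusted p of 0.0471. Low counts limit Ly6c1, Mcam and Alcam, with as few as 29, 40 and 50 reads in a library.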

Other observations

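Genes next to a marker did not always move with it, and those given here were picked out after their values were seen. Of 30 tested genes within 500 kb of Icam1, which rose, 5 were higher and 15 lower, among the latter its relative Icam5 (-2.24), 16.1 kb away, and Dnmt1 (-1.26), the gene of the maintenance DNA methyltransferase that 5-aza traps. Pamr1, a neighbour of Cd44, had a log2 fold change of -1.40 beside the -1.52 of Cd44. The 1 tested neighbour of Alcam, Cblb, had one of -0.75, against 1.82 for Alcam. Of 32 tested neighbours of Eng, 8 were higher and 11 lower. Counts of neighbours are descriptions and were not tested.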
